A study of Mus musculus with 24 samples.

Results

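PAX6-TBR2- cells are the neurons of the developing mouse cortex, sorted as cells without the progenitor proteins PAX6 and TBR2, and they were compared here between a conditional knockout of Prdm16 and its control. The comparison takes 8 of the 24 libraries of the study, chosen by their sample titles: 4 WT and 4 KO libraries of PAX6-TBR2- cells. The other 16 libraries hold PAX6+ radial glia and TBR2+ intermediate progenitors of both genotypes, with 4 libraries in each group. All cells came from the cerebral cortex of embryos at E15.5. WT libraries carry the genotype Prdm16 flox/flox without a recombinase, and KO libraries are Emx1Ires-Cre; Prdm16flox/flox. Floxed Prdm16 alleles were thus present in every group, and Cre in the KO groups only, so an effect of Cre or of the Emx1 allele that carries it cannot be told apart from the loss of Prdm16. Cre driven from the Emx1 locus works in the lineage of the dorsal telencephalon, which gives rise to the excitatory neurons of the cortex, whereas cortical interneurons arise in the ventral telencephalon. The series calls the libraries biological replicates, but no label gives the embryo or litter, so p-values reflect the spread among the libraries alone, which may be technical in part.

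PRDM16 is a zinc finger protein of the PR domain family that acts on transcription together with histone methyltransferases and corepressors. In the cortex it is known as a regulator of radial glia, the stem cells that line the ventricle. Radial glia give rise to neurons directly or through TBR2+ intermediate progenitors. Newborn neurons leave the cell cycle, migrate outward along radial glial fibres and settle in layers: deep-layer neurons, which project below the cortex, are born before upper-layer neurons, many of which project within it. The comparison of KO and WT neurons asks which genes differ with the genotype in cells that have left the progenitor state.

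Libraries of PAX6-TBR2- cells held 4.95 to 8.64 M counts, apart from WT replicate 4 with 30 M, which is 4.54 times the median of the other 7. A library had counts for 19185 to 22975 genes, and genes of the mitochondrial genome made up 20.4% to 26.1% of a WT library and 21.8% to 24.4% of a KO library. Defining markers differed between the sorted populations in WT libraries: Dcx, a microtubule protein of migrating neurons, was at 2418 ± 190 CPM (counts scaled by the library total; SD, n = 4) against 57.2 ± 20.9 in PAX6+ cells. It did not set neurons apart from TBR2+ cells, where it was at 2402 ± 329 CPM, and Slc17a6 (322 ± 19.5 in TBR2+ cells, 39.5 ± 4.41 in neurons) and Rbfox3 (395 ± 42.7 and 130 ± 17.6) were higher there than in the neurons. Eomes, the gene of TBR2, was at 42.1 ± 24.1 CPM against 931 ± 77.9 in TBR2+ cells. The sort is not pure neurons of 1 lineage, since genes of GABAergic interneurons were present as well (Gad2, which makes GABA, at 125 ± 46.9 CPM in WT). CPM values in this paragraph, and all levels summed over a gene list, are scaled over all 24 libraries, and CPM values of genes given from here on are scaled within the 8 neuron libraries (both by TMM, which sets library totals to a common scale).

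The targeted gene, Prdm16 (ENSMUSG00000039410, minus strand of chromosome 4, 154316125 to 154636873 in GRCm38), had 66, 154, 212 and 931 counts in WT libraries 1 to 4 and 73, 103, 115 and 233 in KO libraries. Scaled, these were 23.9 ± 7.96 CPM for WT libraries and 17.9 ± 7.05 CPM for KO libraries (SD, n = 4 each), with a log2 fold change of KO over WT of -0.44 (SE 0.27, adjusted p = 0.8136 in edgeR), and the groups overlapped, so these counts do not separate the genotypes. Which exons the loxP sites flank is not given in the labels, and a gene-wide count checks the genotype only in part. Its exons share 109 bases with B230104I21Rik on the opposite strand, and the strand setting of the counting is not known. Mecom, the gene of a close PRDM16 relative, was too low to test, with 1, 3, 2 and 4 counts in WT and 7, 14, 1 and 9 in KO libraries. Emx1, the homeobox gene whose locus carries Cre, was at 13.3, 16.3, 17.1 and 21.6 CPM in WT and 10.9, 10.6, 12.7 and 11.5 CPM in KO. All 4 KO values lay below all 4 WT values, but the log2 fold change of -0.60 (SE 0.17) did not pass (adjusted p = 0.5287).

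Among neurons 1 gene rose in the knockout and 0 fell, at an adjusted p under 0.05 in edgeR's quasi-likelihood test with Benjamini-Hochberg adjustment. That is 0.00774% of the 12928 genes tested. At an unadjusted p under 0.05 there were 325 genes higher and 529 lower in KO (2.51% and 4.09% of those tested, 6.61% in all), and DESeq2 called 9 higher and 15 lower after adjustment. The 4 KO libraries lay wholly above the 4 WT libraries in 235 genes (1.82%) and wholly below in 306 (2.37%), which is 4.18% of the genes together. Fold changes were small: their median was 0.000713 and their SD 0.24 on the log2 scale, with 50.1% above 0 and 49.9% below.

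The gene that passed was Ppp1r14c (ENSMUSG00000040653, plus strand of chromosome 10, 3366057 to 3464975), which encodes an inhibitor of protein phosphatase 1. It was at 5.29, 5.90, 4.82 and 4.11 CPM in the WT libraries and at 16.1, 12.3, 15.9 and 14.4 CPM in the KO libraries. The lowest KO library thus stood above the highest WT library by more than the range within either group. The means were 5.03 ± 0.756 and 14.7 ± 1.73 CPM (SD, n = 4 each), a log2 fold change of 1.58 (SE 0.18, adjusted p = 0.006195 in edgeR). The call held in 16 of 17 alternative settings, with adjusted p-values from 9.495e-10 to 0.05744. The setting without it was 1 fit of all 24 libraries (adjusted p = 0.05744). In TBR2+ cells Ppp1r14c rose as well (2.85), and the difference of -1.27 between the populations did not pass (adjusted p = 0.494). In PAX6+ cells it was too low to test.

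The gene nearest the threshold was Ptx3 (ENSMUSG00000027832, plus strand of chromosome 3, 66219910 to 66225805), which encodes a secreted pentraxin. It had 1.57, 3.83, 2.60 and 4.79 CPM in WT and 8.83, 10.3, 13.7 and 16.6 CPM in KO libraries. No KO value reached down to the WT range, though both groups were spread over a wide range for their level. The log2 fold change of 1.83 (SE 0.29) was above that of Ppp1r14c, with an adjusted p of 0.1062, and it passed in 6 of 17 alternative settings, among them the fits without WT replicate 4 and with that library thinned to the median depth of the others. Ptx3 rose in PAX6+ (2.24) and TBR2+ cells (3.43), and the neurons did not differ from either by the test of the difference (adjusted p = 0.9443 and 0.2046). Ptx3 lies inside the span of Veph1 on the opposite strand, but their exons share no base.

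The sequences before the starts of these 2 genes are shown because they had the largest higher values that were separate between the genotypes. Each is a window of 150 bases, from base 250 to base 101 before the RefSeq start, on the plus strand of GRCm38.p6 (RefSeq); the nearer bases were left out because GENCODE starts Ppp1r14c inside them. Ppp1r14c covers chr10:3365900-3366049 and Ptx3 chr3:66219637-66219786. Capitals mark matches to CANNTG, the E-box read by bHLH factors, which reads the same on both strands.
Ppp1r14c: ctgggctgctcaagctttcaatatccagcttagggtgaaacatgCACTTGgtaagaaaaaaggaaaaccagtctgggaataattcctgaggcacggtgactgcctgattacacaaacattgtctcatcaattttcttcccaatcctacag
Ptx3: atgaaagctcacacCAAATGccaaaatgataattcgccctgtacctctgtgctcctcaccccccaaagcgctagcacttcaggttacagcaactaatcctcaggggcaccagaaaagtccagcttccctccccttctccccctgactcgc
Each window holds 1 E-box, as do 49.3% of the 32851 RefSeq promoter windows of that length at least once. Neither holds GATAAG on either strand, a motif searched because the PRDM16 relative encoded by Mecom is known to bind GATA-like sites, and which 4.22% of the windows hold. The base composition differed, with 43.3% G and C for Ppp1r14c and 53.3% for Ptx3.

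**Figure D1:**
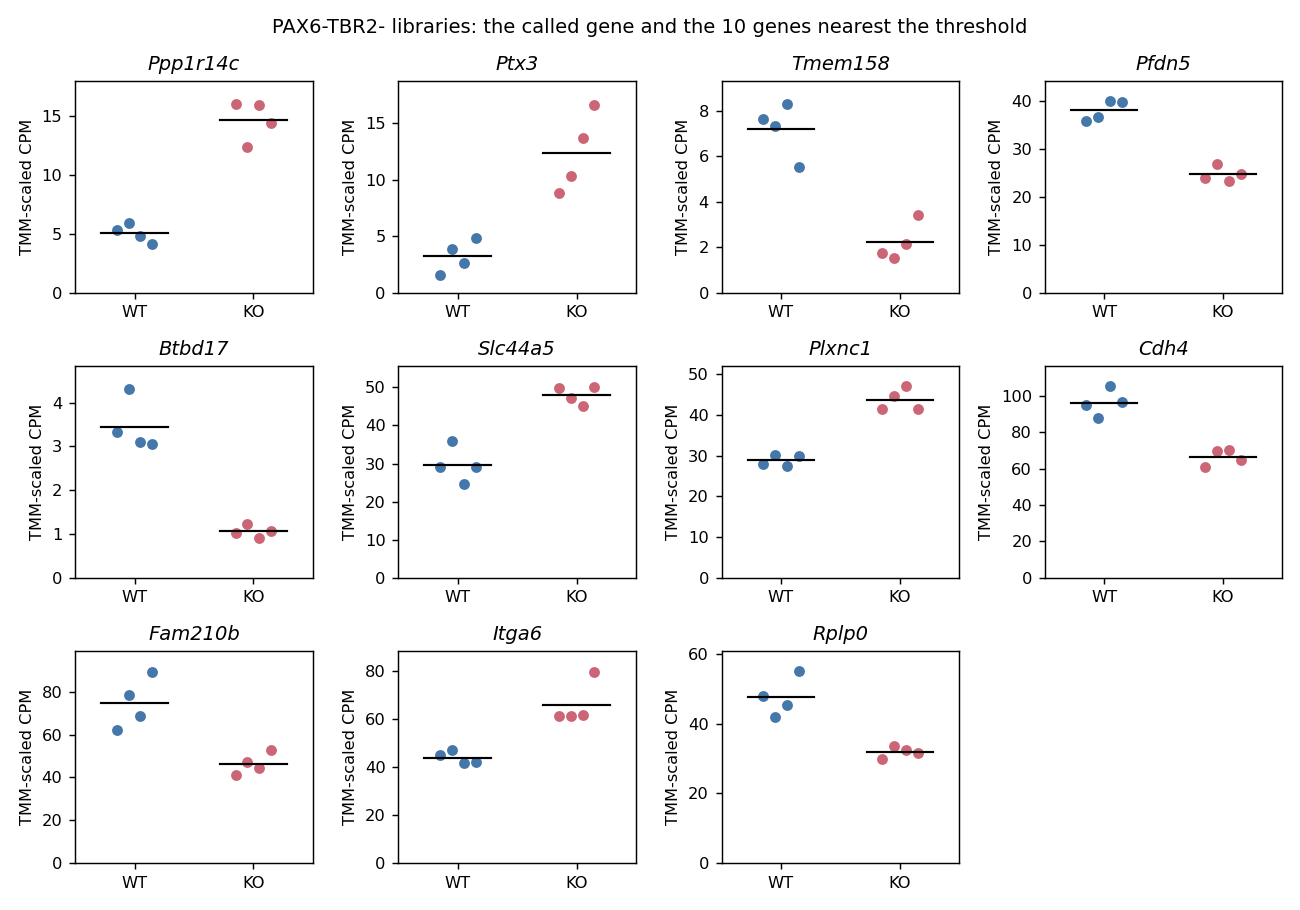
Each panel plots TMM-scaled CPM (linear axis from 0) of 1 gene in the 4 WT (blue) and 4 KO (red) PAX6-TBR2- libraries, with a line at each group mean; the genes are Ppp1r14c, which passed the test, and the 10 genes of lowest unadjusted p that did not. In every panel the 2 groups are apart, from Ppp1r14c at 4.11 to 5.90 CPM in WT against 12.3 to 16.1 in KO to Rplp0 at 41.9 to 55.0 against 29.7 to 33.5. Picking genes by a low p in these same libraries favours such separation.

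The 10 genes with the lowest unadjusted p below the called gene had adjusted p-values of 0.1062 to 0.1628, and in all of them the groups were apart. They were picked by a low p in these same libraries, which favours separate groups, so the separation is no further support. Those higher in KO beside Ptx3 were the genes of a choline transporter-like protein, Slc44a5 (0.70), a semaphorin receptor, Plxnc1 (0.59), and a laminin-binding integrin subunit, Itga6 (0.59). Slc44a5 had 29.2, 35.9, 24.7 and 29.1 CPM in WT and 49.8, 47.2, 45.2 and 50.2 CPM in KO. Plxnc1 had 28, 30.3, 27.6 and 29.8 CPM in WT and 41.5, 44.7, 47.2 and 41.4 CPM in KO. In both, every KO value exceeded every WT value, and in Plxnc1 the gap between the groups was larger than the range within either. Itga6 had 44.9, 47.0, 41.6 and 41.9 CPM in WT and 61.4, 61.1, 61.4 and 79.8 CPM in KO, where the fourth library stood above the other 3. Itga6 rose in PAX6+ cells by 1.78, and its smaller value in neurons differed from that by -1.18 (SE 0.15, adjusted p = 0.0001349 for the difference). In TBR2+ cells Slc44a5 (0.62, adjusted p = 0.005864 in edgeR) and Itga6 (0.97, 0.0003736) rose as well. Plxnc1 did not pass there (0.79, 0.05241) but rose in PAX6+ cells (0.95, 0.0003354).

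Those lower in KO were Tmem158, a transmembrane protein gene, Btbd17, the prefoldin chaperone gene Pfdn5, the cadherin gene Cdh4, Fam210b and Rplp0, which encodes the ribosomal stalk protein P0. Tmem158 had 7.64, 7.33, 8.29 and 5.55 CPM in WT and 1.77, 1.54, 2.12 and 3.43 CPM in KO (-1.64, SE 0.27). Btbd17 had 3.33, 4.30, 3.09 and 3.05 CPM in WT and 1.03, 1.23, 0.910 and 1.06 CPM in KO (-1.67, SE 0.29). Both were low in abundance, with no library of 1 genotype inside the range of the other. Both were higher in WT TBR2+ cells than in WT neurons, with CPM scaled over all 24 libraries. Btbd17 was at 32.9 against 3.65 CPM, and Tmem158 at 16.8 against 7.63 CPM. Cdh4 was at 96.4 ± 7.26 CPM in WT and 66.4 ± 4.39 in KO (-0.54, SE 0.10), and Fam210b at 74.8 ± 11.8 and 46.4 ± 5.07 (-0.69, SE 0.13). Pfdn5 (-0.63) shares 165 exon bases with Myg1 on the same strand, so its reads could be split between the 2 genes. Rplp0 was at 47.5 ± 5.55 CPM in WT and 31.8 ± 1.57 in KO (-0.59, SE 0.11), alongside other ribosomal protein genes. The falls of Btbd17 (-0.69, adjusted p = 0.03052 in edgeR), Cdh4 (-0.70, 0.00292) and Fam210b (-0.75, 0.002839) also passed in TBR2+ cells. Those of Tmem158 (-0.80), Pfdn5 (-0.36) and Rplp0 (-0.40) did not. For none of these genes did the difference between neurons and TBR2+ cells pass, with adjusted p-values of 0.5271 or more.

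None of 22 pan-neuronal genes, which define neurons as such, passed: 14 lay below 0 and 8 above, and the median was -0.05 (-0.13 without WT replicate 2), against a median of 0.000713 over all genes tested. Dcx, the most abundant of them, was at 2284 ± 180 CPM in WT and 2450 ± 288 in KO (0.10, SE 0.10). Stmn3, which encodes a stathmin that destabilises microtubules, had the lowest value: 70.7, 63.8, 64.9 and 59.9 CPM in WT and 45.5, 49.8, 45.2 and 43.4 CPM in KO (-0.49, SE 0.10, adjusted p = 0.1713). Its groups were apart, as were those of Syt1, the calcium sensor of transmitter release, at 101 ± 4.91 CPM in WT and 127 ± 8.53 in KO (0.32, SE 0.09, adjusted p = 0.5302).

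Most upper-layer genes lay below 0 and most deep-layer genes above, with none passing in the comparison as given so far. Of 18 upper-layer genes 15 lay below 0, and the median was -0.10 (-0.23 without KO replicate 3). The lowest was Unc5d, a receptor of the netrin family that marks multipolar neurons and later upper layers, at 95.6, 124, 101 and 116 CPM in WT and 59.6, 63.7, 57.0 and 87.6 CPM in KO (-0.71, SE 0.14, adjusted p = 0.1672). Its KO values all lay below its WT values, and it passed in 4 of 17 alternative settings. Cux1 (-0.56), Pou3f2 (-0.70), Pou3f1 (-0.63) and Lhx2 (-0.53), all transcription factor genes of upper layers or their precursors, had values of -0.53 or lower, whereas Cux2 was at -0.03 and Rorb at -0.08. Plxnd1, a semaphorin receptor gene, lay highest at 0.60.

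Of 17 deep-layer genes tested 13 lay above 0, and the median was 0.10. Nfib, a nuclear factor gene and the most abundant, was at 3521 ± 626 CPM in WT and 3844 ± 525 in KO (0.13). Lmo3, which encodes a LIM-only cofactor, lay highest at 0.41 (100 ± 19.8 against 132 ± 38.7 CPM), and Crym, which encodes a thyroid hormone-binding protein, lowest at -0.17. The classical determinants of subcortical projection Fezf2 (0.19), Bcl11b (0.20), Sox5 (0.27) and Tbr1 (0.06) lay above 0 with adjusted p-values of 0.8136 to 0.968. The deep-layer median turned to -0.04 without KO replicate 1 and rose to 0.24 without WT replicate 1, so its sign was set by single libraries. Of 7 subplate genes tested none passed, with Lpar1, a lysophosphatidic acid receptor gene, lowest at -1.05 and the median at -0.12 (0.16 without KO replicate 4).

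The libraries numbered 3 and 4 stood apart from those numbered 1 and 2 in both genotypes. The summed level of the upper-layer genes was 3036, 3007, 4892 and 4257 CPM in WT and 2547, 2679, 3694 and 3602 CPM in KO. That of the deep-layer genes was 9305, 8599, 6540 and 6079 CPM in WT and 10120, 9477, 7017 and 7401 CPM in KO. Upper-layer sums were thus higher, and deep-layer sums lower, in libraries 3 and 4 of each genotype, and the difference between the 2 pairs of libraries was larger than that between genotypes. A large part of the deep-layer sum was Nfib, at a mean of 3729 CPM in WT and 4069 in KO. That list also summed to 2406 to 2470 CPM in WT PAX6+ cells, and sums without Nfib were not tested. Interneuron genes followed the upper-layer sums, with 562, 731, 1149 and 1512 CPM in WT and 778, 1075, 1764 and 1767 CPM in KO. In bulk libraries, fewer cells of a type and less RNA per cell cannot be told apart. No label gives a batch, litter or sorting day for these libraries.

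The comparison was therefore repeated with this split as a term, a choice made after the split was seen, and more genes passed: 16 rose and 25 fell, which is 0.317% of the genes tested. The split was seen in the upper-layer, deep-layer and interneuron sums of these same libraries. Calls of members of those lists are thus not independent of the choice of the term. Of the upper-layer genes, Pou3f2 (-0.68), Cux1 (-0.53), Lhx2 (-0.52) and Unc5d (-0.71) fell, with adjusted p-values in edgeR from 0.01105 for Pou3f2 to 0.03628 for Lhx2, and Plxnd1 (0.57) rose. No deep-layer gene passed. Other genes that fell were those of the guidance receptor Robo2 (-0.46), the cadherins Cdh4 (-0.54) and Cdh12 (-0.96), the matrix protein fibronectin, Fn1 (-0.61), and the transporter Slc17a6 (-0.65). Ptx3 (1.88) and the receptor genes Gabra2 (0.69), Gria4 (0.44) and Erbb4 (0.61) rose, Erbb4 being an interneuron marker. In libraries 1 and 2 alone and in libraries 3 and 4 alone no gene passed, in 2 against 2 libraries. At an unadjusted p under 0.05 there were 746 of 13008 and 880 of 13581 genes tested. The values of these 2 sets of libraries can still be set side by side: Cux1 was at -0.43 and -0.63, Pou3f2 at -0.59 and -0.76, Erbb4 at 0.61 and 0.60 and Ppp1r14c at 1.33 and 1.79. The upper-layer median was -0.20 in libraries 1 and 2 and -0.21 in libraries 3 and 4, the deep-layer median 0.09 and 0.12, and the interneuron median 0.47 and 0.34.

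**Figure D2:**
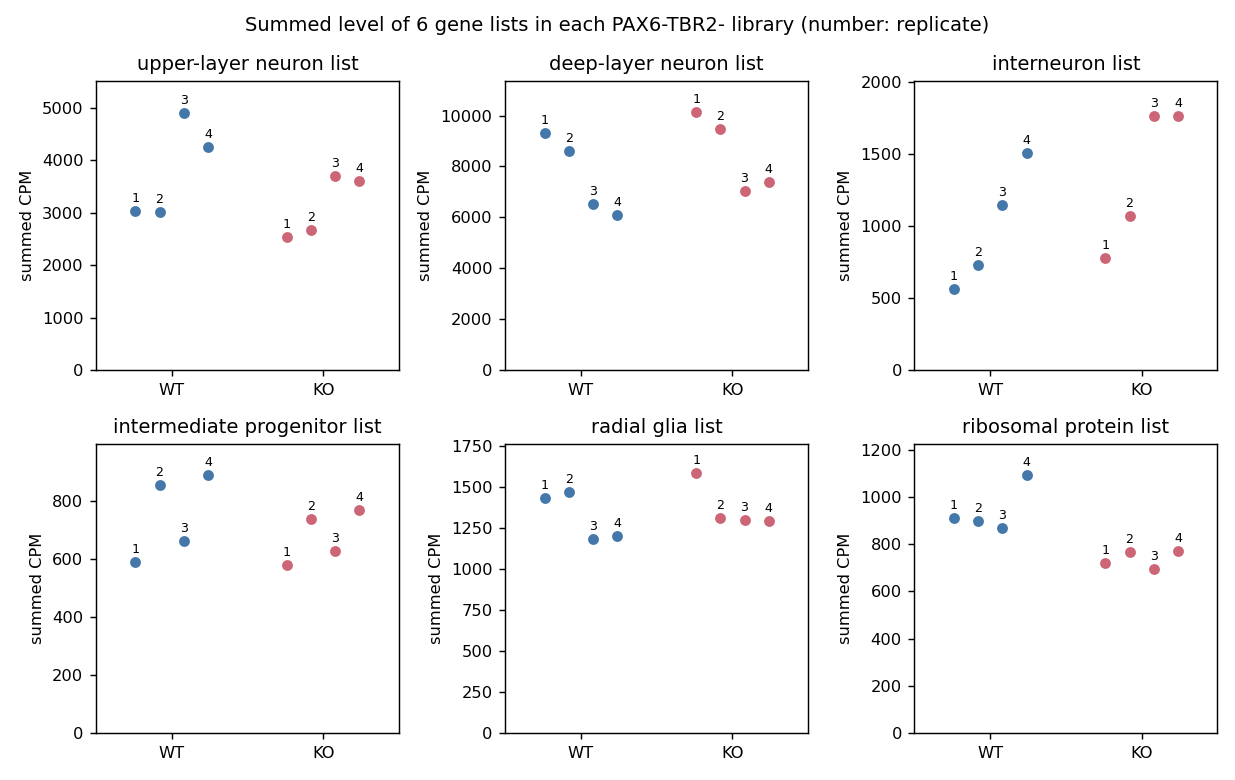
Points give the summed CPM of 6 gene lists in each PAX6-TBR2- library (WT blue, KO red; the digit is the replicate number; axes start at 0). Libraries 3 and 4 are above 1 and 2 for upper-layer and interneuron genes in both genotypes and below them for deep-layer genes, while ribosomal protein sums are lower in all 4 KO libraries (693 to 771) than in all 4 WT libraries (869 to 1094).

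Among 13 cortical patterning genes none passed and 9 lay below 0 (median -0.13, from -0.24 without WT replicate 1 to -0.07 without WT replicate 3). Besides Emx1, the lowest were Sp8 (-0.55), Emx2 (-0.54) and Gli3 (-0.50), genes of transcription factors that set up areas and the dorsal identity of the telencephalon.

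Genes of migration, guidance and adhesion lay on both sides of 0. Of 31 radial migration genes none passed, 16 lay above 0 and the median was 0.01. Sema3c, which encodes a secreted semaphorin, lay lowest with 27.0, 31.6, 20.8 and 21.8 CPM in WT and 15.8, 14.8, 14.4 and 16.6 CPM in KO (-0.70, SE 0.15, adjusted p = 0.2769). The groups were apart by a small margin. In PAX6+ cells Sema3c fell by 2.65, and the difference of 1.96 between the populations passed (adjusted p = 0.02695). It was lost in 8 of 16 fits that left out 1 library, with an adjusted p of 0.1035 without KO PAX6+ replicate 2. Filip1 (0.45), a filamin regulator gene, lay highest, and Auts2, the most abundant, was at 0.04. Of 43 axon guidance genes 20 lay above 0 and none passed (median -0.02), from Unc5d to the Slit ligand gene Slit3 at 0.64 (SE 0.22). The Slit receptor gene Robo2 was at 656 ± 136 CPM in WT and 474 ± 79.4 in KO (-0.47, SE 0.15), with overlapping groups, and Cntn2, an axonal adhesion protein gene and the most abundant, at 0.05. Of 32 adhesion genes, Cdh12 lay lowest (-0.98, SE 0.26, from 18.8 ± 5.29 to 9.62 ± 3.39 CPM) and the protocadherin gene Pcdh10 highest (0.51, SE 0.14), both with groups apart and adjusted p = 0.5159. The median of that list was 0.00. Of 27 microtubule and growth cone genes 19 lay below 0 (median -0.08), from the tubulin gene Tuba1a at -0.38 (2416 ± 313 against 1859 ± 329 CPM) to Dcx at 0.10, with Map1b, the most abundant, at 0.01. That median was -0.13 without WT replicate 2 and -0.03 without WT replicate 3.

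Synaptic genes were read as 2 lists by role. Of 28 genes of synaptic vesicles and release 14 lay above and 14 below 0, and none passed. Slc17a6, the vesicular glutamate transporter of young neurons, lay lowest: 31.7, 37.6, 41.7 and 38.2 CPM in WT and 19.1, 27.5, 20.9 and 27.3 CPM in KO (-0.66, SE 0.14, adjusted p = 0.2769). Its groups did not overlap, whereas those of the related Slc17a7 did (0.11, SE 0.14). The effect on Slc17a6 in neurons differed from that in TBR2+ cells (0.23 there, a difference of -0.89, adjusted p = 0.04069), but 12 of 16 fits without 1 library lost that call. Syn2, a synapsin gene, lay highest at 0.44.

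Of 30 glutamate and GABA receptor genes 27 had values above 0 and 3 had values below it, and their median was 0.18, although none passed. Over all genes tested 50.1% lay above 0. Gabra2, which encodes an alpha subunit of the GABA-A receptor, lay highest, at 20.4, 20.4, 26.1 and 20.9 CPM in WT and 42.8, 31.9, 30.5 and 36.3 CPM in KO (0.69, SE 0.14, adjusted p = 0.1888). Its KO values all exceeded its WT values. Of the 30 genes it was the only 1 with groups apart, where 4.18% of all genes tested had groups apart. In PAX6+ cells Gabra2 rose by 4.23, and the difference of -3.54 between the populations passed (adjusted p = 2.605e-06). Other subunit genes with values above 0.5 were Gabrg3 (0.64) and Gabra5 (0.53), and, of glutamate receptors, Grik1 (0.59), Grm5 (0.54) and Grin3a (0.53). Gria2, the most abundant subunit gene, was at 0.03 (1206 ± 112 against 1233 ± 100 CPM) and Grik5 lay lowest at -0.10. The list median stayed between 0.14 and 0.28 in the 17 alternative settings. Interneurons carry such receptors too: their genes were at a summed level of 562 to 1512 CPM in WT and 778 to 1767 CPM in KO, and their part in the receptor values was not tested. Of 26 ion channel genes 16 lay above 0 (median 0.06, and 0.0034 without KO replicate 1 or 0.13 without WT replicate 1), with the potassium channel gene Kcna2 highest (0.61) and Kcnk10 lowest (-0.25).

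**Figure D3:**
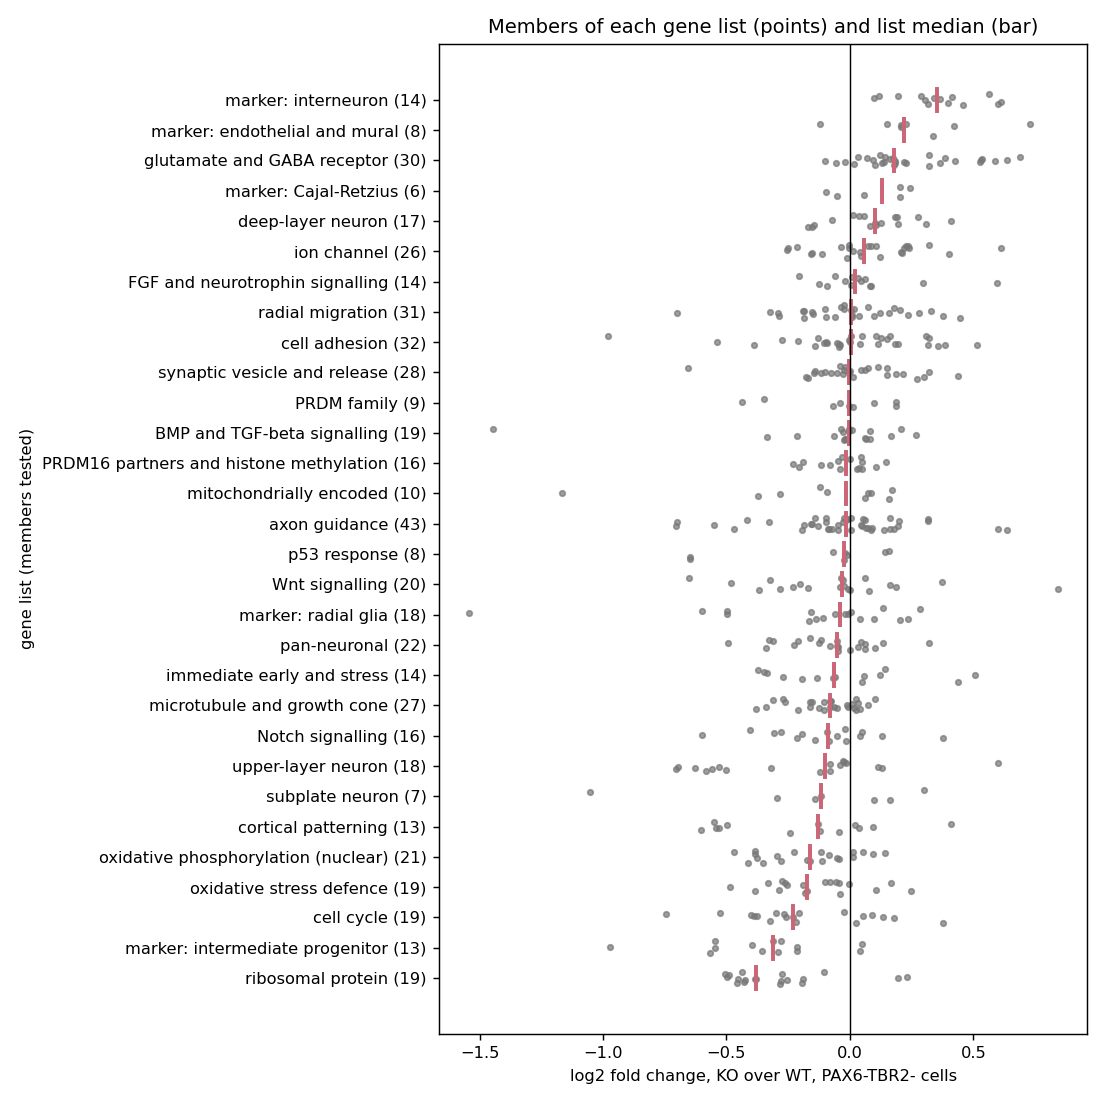
Each grey point is the log2 fold change (KO over WT, PAX6-TBR2- cells) of 1 tested member of a gene list, with a red bar at the list median and the number of tested members in brackets; lists with fewer than 5 tested members are not drawn. Medians run from -0.38 for ribosomal protein genes to 0.35 for interneuron markers, and no point passed the test.

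No member of the signalling lists passed. Of 16 Notch pathway genes 12 lay below 0 (median -0.09, and -0.17 without WT replicate 1), among them the effector gene Hes1 (-0.60) at 3.62 ± 1.25 CPM in WT. Of 20 Wnt pathway genes 13 lay below 0 (median -0.03, and -0.14 without KO replicate 4), from the receptor gene Fzd8 (-0.65) to Daam2, a formin of Wnt signalling (0.84, SE 0.24), whose groups were apart. Of 19 BMP and TGF-beta genes 11 lay below 0 (median 0.00), with Smoc1, which encodes a secreted BMP antagonist, lowest at -1.44 (SE 0.37) and the activin receptor gene Acvr2a highest at 0.27. Of 14 FGF and neurotrophin genes 9 lay above 0 (median 0.02), with Fgf18 highest at 0.60. Of 9 PRDM family genes, Prdm8, a gene of axon tract formation, was at -0.35 (189 ± 27.6 against 149 ± 13.9 CPM, adjusted p = 0.5755) and Prdm4 at 0.18. Of 16 genes of PRDM16 partners and histone methylation 8 lay on each side of 0, within -0.23 (the corepressor gene Ctbp1) and 0.15 (the methyltransferase gene Ezh2).

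Ribosomal protein genes were the list with the lowest median, -0.38. The list held 20 genes, and more ribosomal protein genes were tested outside it. Of 19 tested 17 lay below 0, and 10 were lower at an unadjusted p under 0.05 in edgeR, although none passed after adjustment. Over all genes tested 49.9% lay below 0 and 4.09% were lower at that p. Within the list Rpl32 was lowest, with 54.8, 57.1, 52.7 and 70.3 CPM in WT and 41.7, 42.6, 38.4 and 43.5 CPM in KO (-0.51, SE 0.11, adjusted p = 0.2963). Its groups were apart, as were those of Rpl4, the most abundant, at 298 ± 46.5 CPM in WT and 229 ± 20.4 in KO (-0.38, SE 0.11). Rpl5 (0.23) and Rpl10 (0.20) lay above 0. The sum over the list was 869 to 1094 CPM in WT and 693 to 771 CPM in KO, without overlap, and the median ran from -0.39 to -0.28 over the alternative settings. Nuclear genes of oxidative phosphorylation lay below 0 in 16 of 21 cases (median -0.16, and -0.10 without KO replicate 2), from Ndufa4 (-0.47) to Ndufs1 (0.14), with Atp5b, the most abundant, at 0.01. Oxidative stress defence genes lay below 0 in 16 of 19 cases (median -0.17), with the peroxiredoxin gene Prdx2 at 158 ± 8.16 CPM in WT and 132 ± 8.56 in KO. Mitochondrially encoded genes had 5 of 10 on each side of 0.

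Over all genes, median fold changes went with exon length. In 4 classes of equal size, from the shortest to the longest genes, the median was -0.07, -0.03, 0.01 and 0.06, and the share below 0 was 61%, 56.9%, 47.3% and 34.5%. Without ribosomal protein genes the shortest class had a median of -0.07 too. Genes of that class took 9.38%, 9.17%, 8.86% and 9.96% of the counts of nuclear genes in WT libraries and 8.1%, 8.3%, 8.62% and 8.55% in KO libraries. All 4 KO shares lay below all 4 WT shares. RNA quality values of the libraries were not used here, and the part of length in the values of the ribosomal, oxidative phosphorylation and receptor lists was not tested.

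**Figure D4:**
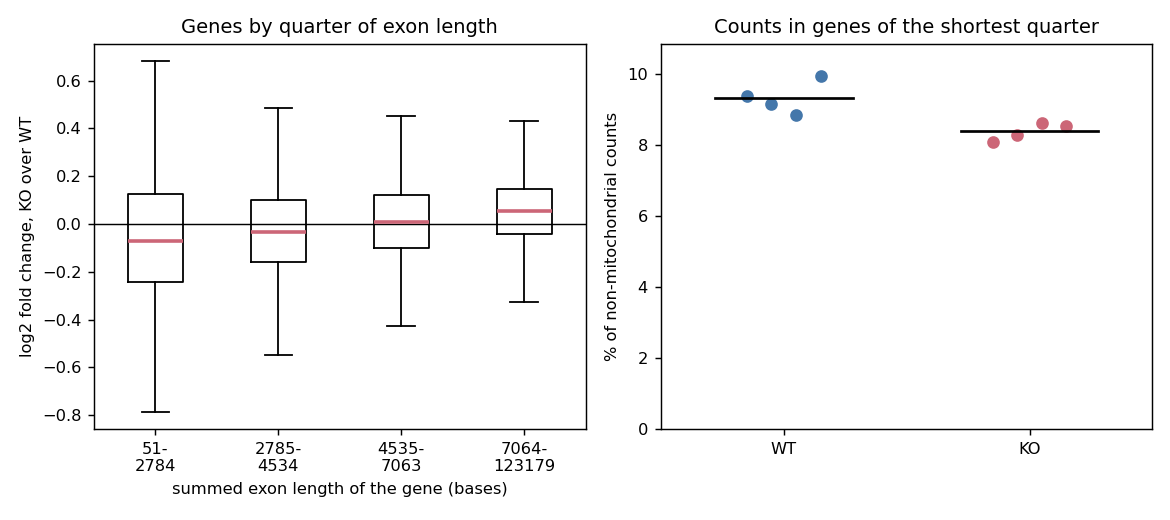
Left, boxes give the median and quartiles of log2 fold changes (KO over WT, PAX6-TBR2- cells) of genes in 4 classes of summed exon length with equal numbers, with whiskers to the last value within 1.5 interquartile ranges; right, points give the percent of non-mitochondrial counts in genes of the shortest class per library, with a line at the group mean. Medians go from -0.07 in the shortest to 0.06 in the longest class, and the share is 8.86% to 9.96% in WT and 8.1% to 8.62% in KO.

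Markers of other cell types were compared to see what the sorted cells held. All 14 interneuron genes tested had values above 0, the median being 0.35, and none passed. Erbb4, a neuregulin receptor gene of migrating interneurons, had 86.2, 128, 172 and 222 CPM in WT and 154, 175, 283 and 318 CPM in KO (0.60, SE 0.26, adjusted p = 0.7341). Sst, the gene of somatostatin, had 16.1, 18.6, 33.8 and 47.3 CPM in WT and 28.4, 39.3, 65.7 and 50.3 CPM in KO (0.61, SE 0.30). In both genes the groups overlapped, and the lowest values of each genotype were in libraries 1 and 2. The list median was 0.69 without WT replicate 4 and 0.15 without KO replicate 3. The summed level of interneuron genes in WT was 30.0 to 44.1 CPM in TBR2+ and 92.7 to 134 CPM in PAX6+ cells, below every neuron library.

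Progenitor genes were present in the neuron libraries, at lower levels than in the population they mark. The summed radial glia level was 1185 to 1469 CPM in WT and 1292 to 1586 CPM in KO neurons, against 6247 to 7773 CPM in WT PAX6+ cells. In WT TBR2+ cells that sum was 881 to 1164 CPM, below every neuron library. Of 18 tested 11 lay below 0 (median -0.04, from -0.18 without WT replicate 1 to 0.06 without WT replicate 2), with Mfge8, a secreted glycoprotein gene, lowest (-1.54, SE 0.38, from 4.92 ± 2.26 to 1.73 ± 0.628 CPM, adjusted p = 0.4043). The summed intermediate progenitor level was 592 to 893 CPM in WT and 581 to 770 CPM in KO, against 3942 to 4778 CPM in WT TBR2+ cells. A large part of it in neurons was Elavl2 (271 CPM in WT, 280 in KO) and Chd7 (109 and 114). On that scale Eomes was at 42.1 CPM in WT and 29.4 in KO, so the sum is no measure of intermediate progenitors among the cells. Of 13 tested 11 lay below 0 (median -0.31, and -0.18 without WT replicate 4), among them Eomes, with 57.9 and 61.4 CPM in WT libraries 2 and 4 and 20.2 or less in the other WT libraries. In KO libraries Eomes was at 22.1, 36.4, 20.2 and 32.4 CPM, all within the WT range. Cell cycle genes lay below 0 in 13 of 19 cases (median -0.23, from -0.37 without WT replicate 3 to -0.06 without WT replicate 4).

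Markers of non-neural cells were low but partly measurable, with Rgs5, a pericyte gene, at 13.7 ± 4.12 CPM and Alas2, of haem synthesis, at 16.4 ± 1.09 CPM in WT. Of 13 endothelial and mural genes 8 could be tested and 7 lay above 0 (median 0.22, and -0.02 without WT replicate 4), with summed levels of 23.4 to 53.9 CPM in WT and 37.2 to 56.5 CPM in KO. Microglial genes summed to 10.9 to 15.1 CPM over the 8 libraries and erythroid genes to 18.4 to 37.7 CPM. Much of the erythroid sum was Alas2, whereas the haemoglobin gene Hbb-bs was at 3.64 ± 3.80 CPM in WT and 2.75 ± 1.79 in KO (scaled over 24 libraries). Meninges genes reached at most 3.06 CPM and choroid plexus genes at most 1.19 CPM, with no member tested in either list, and of 9 glial precursor genes Cspg5 alone was tested (-0.09). Of 6 Cajal-Retzius genes tested 4 lay above 0 (median 0.13, and -0.0013 without WT replicate 4).

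Genes that changed in PAX6+ or TBR2+ cells, both called progenitors here, were then read in the neurons. WT TBR2+ cells held neuronal genes near the level of WT neurons, with Neurod2 at 1092 against 975 CPM and Neurod6 at 1125 against 1135. Their Mki67, a gene of dividing cells, was at 422 CPM, against 2086 in WT PAX6+ cells and 72.2 in WT neurons (all scaled over 24 libraries). Comparisons with TBR2+ cells thus do not set pure progenitors against neurons. Of 12687 genes tested in TBR2+ cells 223 passed (1.76%), and of 14212 in PAX6+ cells 517 (3.64%). Of the 139 genes that rose in TBR2+ cells 128 were tested in neurons and 109 (85.2%) lay above 0, with a median of 0.18 against 0.80 in TBR2+ cells. Of the 84 that fell there 76 were tested and 65 (85.5%) lay below 0, with a median of -0.30 against -0.74. For PAX6+ cells, 247 of 310 tested genes that had risen (79.7%) lay above 0 in neurons and 96 of 134 that had fallen (71.6%) lay below, with medians of 0.14 and -0.15 against 0.83 and -0.74. These genes were chosen by their change in the progenitors, which raises the medians there, so the medians do not show that sizes differ, and no test of the sets was made. Ppp1r14c, the only gene of all tested that passed in neurons, was among those that rose in TBR2+ cells. The populations used separate libraries, and no label says whether they came from the same embryos. Genes of the radial glia and intermediate progenitor lists were present in the neuron libraries at the summed levels given above, with Ptprz1 and Elavl2 the most abundant. Their part in these values was not tested.

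Several of the strongest progenitor changes had like signs in neurons without passing. Rcan2, a calcineurin regulator gene (1.12, SE 0.28), and Veph1 (1.09, SE 0.28) were higher in each KO library than in any WT library, at 2.23 to 4.46 against 5.30 to 9.23 CPM and at 1.96 to 4.59 against 6.04 to 11.7 CPM. Smoc1 was at 2.15, 3.19, 5.81 and 8.18 CPM in WT and 1.62, 2.31, 1.82 and 1.89 CPM in KO. The collagen gene Col12a1 (-1.66, SE 0.40) and Thsd4 (-1.45, SE 0.40) had overlapping groups, and in both WT replicate 1 was the lowest WT library. For none of these 5 did the difference from either progenitor population pass, with adjusted p-values of 0.3179 or more.

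Other genes differed between neurons and progenitors by the test of the difference. In the labels each population has a library prefix of its own, so the population and the set of libraries cannot be told apart. Against TBR2+ cells 7 of 13725 genes passed (0.051%), and against PAX6+ cells 117 of 15102 (0.775%). Pdzrn3, which encodes a ubiquitin ligase, had 168, 186, 257 and 289 CPM in WT neurons and 167, 174, 276 and 294 CPM in KO neurons, a log2 fold change of 0.01 (SE 0.20). The values of like-numbered libraries were close, with higher values in libraries 3 and 4 of both, whereas Pdzrn3 rose by 2.07 in TBR2+ cells (difference -2.06, SE 0.26, adjusted p = 0.00136). Fosl2, an AP-1 transcription factor gene, was at 49.8 ± 16 CPM in WT neurons and 54.1 ± 12 in KO (0.14), against 2.42 in TBR2+ cells (difference -2.28, adjusted p = 0.00798). The adhesion gene Dscaml1 (-0.10 in neurons, -1.96 in TBR2+; adjusted p = 0.0123) and the homeobox gene Pbx3 (0.04 and -2.16; adjusted p = 0.01705) fell in TBR2+ cells and lay near 0 in neurons. The remaining 3 were Prokr2 (-0.60 and 1.45; adjusted p = 0.01705), Akap12 (-0.07 and -1.33; adjusted p = 0.03867) and Slc17a6. Leaving out 1 of the 16 libraries lost the call for Pbx3 in 5 fits (adjusted p up to 0.07838), for Prokr2 in 3 (up to 0.0667) and for Akap12 in 13 (up to 0.1104). Those for Pdzrn3, Fosl2 and Dscaml1 held in all 16. Pdzrn3, Prokr2, Fosl2 and Dscaml1 also differed from PAX6+ cells by the test of the difference, with adjusted p-values of 0.00791 or less. Prokr2, a prokineticin receptor gene, had opposite signs in the 2 populations, with 7.97 to 8.62 CPM in WT neurons and 3.79 to 6.92 CPM in KO neurons.

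Against PAX6+ cells, the genes of largest change there that differed in neurons were Cyp26b1 (difference -4.24), Plcxd3 (-4.11), Kcna6 (-3.91), Dmrtb1 (-3.65), Gabra2 and, with the opposite sign, Ppp1r1b (3.37) and Sema3c. Cyp26b1 and Dmrtb1 were too low to be tested within neurons and entered the fit through PAX6+ cells, where they are high, so their differences say nothing of an effect in neurons. Kcna6, a potassium channel gene, was at 13.4 ± 4.97 CPM in WT neurons and 15 ± 2.77 in KO (0.21), and Ppp1r1b, the gene of the phosphatase inhibitor DARPP-32, at 11.3 ± 2.38 and 9.51 ± 3.01 (-0.23). The guidance genes Sema6d (0.20 in neurons, 2.48 in PAX6+; adjusted p = 3.952e-05) and Epha3 (0.00 and 1.68; adjusted p = 9.705e-05) also differed. Both were expressed in WT neurons, Sema6d at 424 ± 57.0 and Epha3 at 203 ± 24.1 CPM (SD, n = 4). Of the genes named in this paragraph, Dmrtb1 lost its call without WT neuron replicate 4 (adjusted p = 0.1054) and Sema3c as given above.

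**Figure D5:**
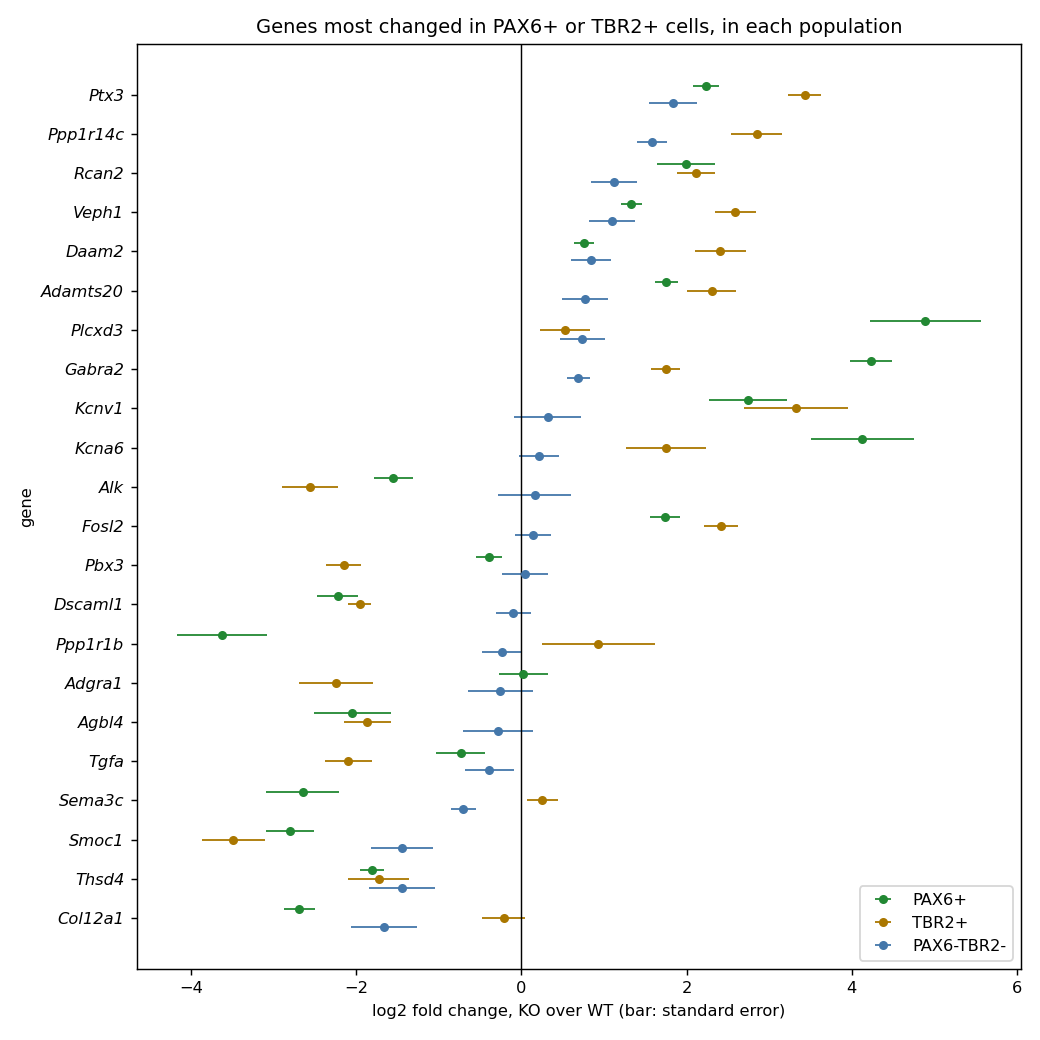
Points give log2 fold changes (KO over WT) with standard errors as bars for the genes most changed in PAX6+ (green) or TBR2+ (orange) cells that were also tested in PAX6-TBR2- cells (blue). Blue points lie between -1.66 (Col12a1) and 1.83 (Ptx3); Fosl2, Pbx3 and Dscaml1 lie near 0 in neurons while they were at 2.42, -2.16 and -1.96 in TBR2+ cells.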

How the data were processed

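RNA of sorted cells was amplified by single primer isothermal amplification and sheared before library preparation, without molecular identifiers, per the labels' protocols. Amplification and shearing can favour genes by length, and counting error is only part of the error. The authors deposited raw counts per gene, with 2 lane columns per library that were summed here. Tools listed in the submitters' processing notes are STAR, featureCounts, cutadapt, FastQC and DESeq2, with the build mm10; which annotation release was counted, and whether by strand, is not given there. The authors also deposited a normalized signal table for this population, whose columns name a group but no replicate. All of its values (100%, within a tolerance of 1e-06) were whole multiples of 1 read, and the recovered totals were 1.7 (WT) and 1.44 (KO) times the raw counts, so they were used as an alternative only. They gave 1 called gene.

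Identifiers were matched to GENCODE M21 (GRCm38), which named 37693 of 39017. KO and WT were compared in edgeR 4.0.16 (R 4.3.3) by the two-sided quasi-likelihood F test on the 8 libraries, after filterByExpr and scaling by TMM. Calls needed a Benjamini-Hochberg adjusted p under 0.05 over all genes tested. Differences from the progenitors were interaction contrasts over 16 libraries. The test was checked on simulated counts. Libraries of 1 group differed by more than sampling noise (chi-square over degrees of freedom of 5.65 to 16.2 in 12 pairs, at a minimum of 20 reads). That sets them against counting noise alone and does not show separate samples of origin. No 2 libraries were merged. Alternatives were RLE size factors, no filter, a replicate block, the deep library thinned, DESeq2 1.42.0, limma-voom (limma 3.58.1), all 24 libraries in 1 fit, recovered reads, library sizes without mitochondrial genes and leaving out each library. These 17 settings are the ones counted in the text. A term for the split between libraries 1 and 2 and libraries 3 and 4, and each of these sets alone, were added after seeing the data. Figures were drawn with matplotlib 3.10.9.

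The genes and the 35 gene lists were chosen with earlier results of these data known. Named genes are all called genes (the rule foresaw at most 40), Prdm16, Mecom and Emx1, and for each list its most abundant member and its highest and lowest value. They also include the 10 largest rises and 10 largest falls in each progenitor population among genes with separate groups and at least 1 CPM, and the 10 genes of lowest p not called. Other list members, and Pdzrn3, Prokr2, Akap12, Sema6d, Epha3, Gria4, Fn1, Diras2, Kcnh2 and Rph3a, were named after their values were seen. Some genes of this rule are not reported here.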

Additional observations from a re-analysis of the deposited data

Results flagged for a closer look

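There were 4 values, from 3 libraries, that stood far from the other 3 of their group, by the gap to the nearest library relative to the range, in 4 of 52 groups of 4 tested. Chance alone does this in about 1 in 20 groups. WT replicate 4 held 30 M counts, and the other WT libraries 4.95 to 8.64 M. Itga6, an integrin subunit gene, was at 79.8 CPM in KO replicate 4 and at 61.1 to 61.4 CPM in the other KO libraries. The summed radial glia level, most of which was Ptprz1, was 1586 CPM in KO replicate 1 and 1292 to 1310 CPM in the others. The summed level of the erythroid list was 29.5 CPM in KO replicate 1 and 19.3 to 19.9 CPM in the others.

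The effect of the knockout differed between neurons and TBR2+ cells, by the test of the difference, in 7 of the genes named. On the log2 scale, the effect in neurons minus that in TBR2+ cells was -2.28 for Fosl2, -2.06 for Pdzrn3, -2.06 for Prokr2, -0.89 for Slc17a6, 2.19 for Pbx3, 1.86 for Dscaml1 and 1.26 for Akap12. Against PAX6+ cells it was -4.24 for Cyp26b1, a retinoic acid hydroxylase gene, -4.11 for Plcxd3, -3.91 for Kcna6, -3.65 for Dmrtb1, -3.54 for Gabra2, -2.28 for Sema6d, -1.67 for Epha3 and -1.18 for Itga6. Cyp26b1 and Dmrtb1 were too low to be tested within neurons and entered through PAX6+ cells, so their differences say nothing of an effect in neurons. The difference was 3.37 for Ppp1r1b and 1.96 for Sema3c. Of the genes that differed from TBR2+ cells, Prokr2 (-3.32), Pdzrn3 (-2.38), Fosl2 (-1.60) and Dscaml1 (2.14) also differed from PAX6+ cells. Pbx3, Akap12 and Slc17a6 did not. Some other named genes that differed from PAX6+ cells are left out of this list.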

How the results depend on the processing

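The single call in neurons, higher for Ppp1r14c, was also the count with RLE size factors, limma-voom, recovered reads and library sizes without mitochondrial genes. Counts rose to 38 genes (11 higher, 27 lower) without a filter on low counts, where 25969 genes were tested, to 24 (9, 15) with DESeq2, to 6 (3, 3) with all 24 libraries in 1 fit and to 2 (2 higher) with the deep library thinned. With the split between libraries 1 and 2 and libraries 3 and 4 as a term, chosen after seeing the data, they were 41 (16, 25), and 0 (0 higher) in either set of libraries alone. The cause of these changes was not tested. Leaving out 1 library gave 1 to 3 genes (1 to 2 higher, 0 to 2 lower): Ptx3 joined without WT replicate 4, and Unc5d and Tmem158 without KO replicate 4. With the replicate number as a block 153 genes passed in neurons (57 higher, 96 lower), among them all 41 of the fit with the split as a term. Like-numbered libraries share no more than a number in the labels. Their deviations from the group means correlated at 0.09 to 0.4, and 7 of 8 libraries correlated best with their own number. With the block 7 genes again differed from TBR2+ cells, but not Akap12 (adjusted p = 0.05804), and it gave 157 against PAX6+ cells. Without a filter 126 genes differed from TBR2+ cells (15 higher, 111 lower) and 219 from PAX6+ cells (78, 141). Leaving out 1 of 16 libraries gave 3 to 10 genes against TBR2+ cells (1 to 4 higher, 2 to 8 lower) and 84 to 109 against PAX6+ cells (15 to 28 higher, 64 to 88 lower). Against TBR2+ cells there were 3 without WT TBR2+ replicate 3, KO TBR2+ replicate 2 or KO neuron replicate 3, 4 without WT TBR2+ replicate 1 and 10 without WT TBR2+ replicate 4. Of single genes, 26 turned sign under other settings than leaving out a library, none past the threshold. With limma-voom they were Pbx3 -0.035, Crym 0.12, Sp9 -0.026, Cdh5 0.086, Hbb-bs 0.15, Pdzrn3 -0.027, Epha3 -0.0004. With recovered reads they were Pbx3 -0.013, Agbl4 0.10, Numbl 0.0004, Ebf3 0.011, Alas2 0.048, Epha3 -0.0042. Without a filter they were Map1b -0.0049, Atp5b -0.0018, Pdzrn3 -0.0050, Epha3 -0.0099. With the deep library thinned they were Ebf3 0.043. With the block they were Cux2 0.0079. With the split as a term they were Cux2 0.014. In libraries 1 and 2 alone they were Pbx3 -0.086, Rgs8 0.035, Cntn2 -0.092, Prdm2 0.018, mt-Rnr2 0.14, mt-Nd3 1.11, Fosb -0.61, Ebf3 0.26, Cdh5 0.20, Hbb-bs 0.75, Cux2 0.12, Rorb 0.20, Pdzrn3 -0.063, Akap12 0.043. In libraries 3 and 4 alone they were Crym 0.50, Pclo -0.074, Map1b -0.0056, Kmt2a -0.033, Numbl 0.011, Csf1r -0.095, Cspg5 0.076, Epha3 -0.063. On leaving out 1 library 43 values turned sign. In neurons they ran, as log2 fold changes, over Kcna6 -0.012 to 0.42, Kcnv1 -0.13 to 0.61, Fosl2 -0.046 to 0.35, Alk -0.059 to 1.02, Pbx3 -0.13 to 0.24, Dscaml1 -0.27 to 0.058, Crym -0.45 to 0.50, Rgs8 -0.42 to 0.19, Auts2 -0.0038 to 0.076, Cntn2 -0.040 to 0.11, Pclo -0.023 to 0.16, Gria2 -0.014 to 0.099, Grik5 -0.21 to 0.017, Tenm4 -0.017 to 0.097, Map1b -0.046 to 0.046, Prdm2 -0.079 to 0.0006, Numbl -0.11 to 0.059, Tcf4 -0.12 to 0.059, Ntrk3 -0.16 to 0.039, Atp5b -0.044 to 0.13, mt-Co1 -0.016 to 0.26, Fosb -0.20 to 0.75, Ptprz1 -0.066 to 0.24, Chd7 -0.085 to 0.19, Sp9 -0.13 to 0.44, Ebf3 -0.43 to 0.077, Rgs5 -0.031 to 0.37, Cdh5 -0.38 to 0.21, Alas2 -0.17 to 0.058, Hbb-bs -0.81 to 0.80, Cspg5 -0.23 to 0.038, Cux2 -0.25 to 0.18, Rorb -0.40 to 0.20, Tbr1 -0.086 to 0.23, Slc17a7 -0.0001 to 0.21, Pdzrn3 -0.14 to 0.16, Akap12 -0.24 to 0.083, Epha3 -0.060 to 0.057. As differences from TBR2+ cells they ran over Slc44a5 -0.0017 to 0.18, Fam210b -0.027 to 0.16, Gm16565 -0.23 to 0.56, Thsd4 -0.15 to 0.63, and from PAX6+ cells over Ppp1r14c -0.28 to 1.54. Depth limits low genes: at the 4.95 to 8.64 M counts of 7 libraries, 1 CPM rests on few counts per library.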

Other observations

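Genes of the p53 response and of immediate early transcription were read as 2 further lists. Of 8 p53 response genes tested 6 lay below 0 and none passed, with a median of -0.02. Bbc3, an apoptosis gene, lay lowest at -0.65 with overlapping groups (3.77 ± 1.28 CPM in WT and 2.31 ± 0.812 in KO). Bax, which encodes a pore-forming protein of apoptosis, was at 20.2, 20.9, 18.6 and 20.9 CPM in WT and 10, 13.3, 17.1 and 11.2 CPM in KO neurons (-0.65, SE 0.17, adjusted p = 0.4658 in edgeR). All its KO values lay below its WT values, and that of KO replicate 3 by the smallest margin. Of 14 immediate early and stress genes tested 8 lay below 0 and none passed. Fosb, an AP-1 transcription factor gene, was at 8.49 to 17.2 CPM in WT and had 39.1 CPM in KO replicate 3 against 7.95, 9.87 and 15.1 CPM in the other KO libraries, so 1 library set its mean.

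Of the genes of no list with separate groups that passed once the split between libraries 1 and 2 and libraries 3 and 4 was a term in the fit, 3 are given here, picked after their values were seen. Diras2, which encodes a small GTPase, was at 3.92, 3.51, 3.59 and 3.35 CPM in WT and 9.42, 6.48, 5.77 and 9.70 CPM in KO neurons (1.15 in either fit, adjusted p = 0.1672 without the term and 0.04515 with it). Rph3a, the gene of a vesicle protein, was at 61.5 ± 8.96 CPM in WT and 89.5 ± 13.3 in KO (SD, n = 4 each), with adjusted p-values of 0.4043 and 0.01905. Kcnh2, a potassium channel gene, was at 17.4 ± 5.07 and 9.52 ± 0.92 CPM, with 0.3063 and 0.04526.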
